A study of Homo sapiens with 16 samples.

Results

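RNA bound to poly(A)-binding protein (PABP) was set against total RNA in U343 cells, a human glioblastoma line, after transfection with a miR-137 mimic. The 4 libraries compared, of 16 in the whole series, were the 2 RIPSeq and the 2 RNASeq libraries labelled U343, miR137 transfection, and they were chosen by those labels alone. In the RIPSeq libraries, cell extract was immunoprecipitated with a mix of PABP antibodies and the RNA on the beads was sequenced. In the RNASeq libraries, RNA of the whole cells was sequenced. All 4 came from cells that received the mimic at 25 nM, with total RNA harvested after 48 hours, and all were depleted of ribosomal RNA before cDNA synthesis. The 4 U343 libraries with a control mimic (2 RIPSeq, 2 RNASeq) and the 4 miR-137 libraries of U251, a second glioblastoma line, served only to show where the U343 miR-137 ratios differed. The labels number the replicates and do not say whether they are separate cultures, so p-values measure the spread between these libraries, which may be technical. No mock or non-immune precipitate was analysed here.

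PABP binds the poly(A) tail that is added to the 3′ end of most mRNAs. On the tail it contacts the cap-binding complex through eIF4G, favours translation, and shields the mRNA from deadenylases. Transcripts that end without a poly(A) tail are not expected substrates. Examples are the mRNAs of replication-dependent histones, which end in a stem-loop, and the catalytic RNAs made by RNA polymerase III. The precipitates came from extract in polysomal lysis buffer, while total RNA was purified from cells with Trizol. How much of a low ratio came from the extract and how much from the precipitation was not tested. A microRNA acts on the other side of the same system, since its Argonaute complex recruits the CCR4-NOT and PAN2-PAN3 deadenylases to the mRNAs it pairs with.

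The mimic stood for mature miR-137, which pairs through its seed, bases 2 to 8, given in capitals in RefSeq's mature sequence (GRCh38.p14, chr1:98046091-98046113, minus strand). It is shown because all 4 libraries share this treatment.
hsa-miR-137-3p: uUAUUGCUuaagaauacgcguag
The precursor's own gene row held 1 and 3 reads in the RNASeq libraries and 0 and 1 in the RIPSeq libraries.

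Counted reads came to 41599511 and 43909827 in RNASeq replicates 1 and 2, and to 40446346 and 37736206 in RIPSeq replicates 1 and 2, over 20626 genes. The RIPSeq replicates were alike: of 12996 genes over 1 CPM (a gene's reads relative to the library's total, scaled by edgeR's TMM factors), 30 were over 2-fold higher in replicate 2 and 12 in replicate 1. The RNASeq replicates were not. Of 13201 genes over 1 CPM, 599 were over 2-fold higher in replicate 2 and 167 in replicate 1, and the mean chi-square of the counts was 185, against 23.2 between the RIPSeq replicates, 19.9 between the control RIPSeq and 17.6 between the control RNASeq replicates. The difference between the RNASeq replicates included the interferon response described further on. Gene counts and many list medians are therefore given against each RNASeq replicate as well as against both. Other list results are given for the fit of all 4 libraries. The plot of list medians shows each gene list against either replicate. The label was checked on 16 astrocyte and glioma markers: 15 had reads in all 4 libraries, among them GFAP, the astrocyte filament protein, at 3022 and 3589 CPM in RNASeq and 3395 and 4072 CPM in RIPSeq. ALDH1L1, an astrocyte enzyme, had 10 reads or fewer in each. Of 23 markers of other cell types, 9 had 10 reads or fewer in every library, including EPCAM, PTPRC and ALB, and HBB had 0 reads in all 4. The others passed 10 reads in at least 1 library, among them the epithelial cadherin CDH1, with 2707 to 4006 reads, and the macrophage marker CD68, with 191 to 4308. KRT5, a keratin of basal epithelium, was the highest at 1333 and 889 CPM in RNASeq and 415 and 326 CPM in RIPSeq. The summed level of the 13 tested markers of that list was 1471 and 1034 CPM in RNASeq and 656 and 573 CPM in RIPSeq, most of it KRT5, and its part in any ratio was not tested.

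RNAs of classes that mostly carry no poly(A) tail were lower in PABP-bound than in total RNA. These were 53 of 55 histone genes, 49 of 72 small nucleolar and Cajal body RNAs tested, and the RNase P and RNase MRP RNAs. No gene of these lists was called higher. The mRNAs of PABP itself were among those that were higher. Of 15106 genes tested, 1404 were higher in PABP-bound RNA (9.29%) and 1326 were lower (8.78%), by edgeR's quasi-likelihood test at a Benjamini-Hochberg adjusted p under 0.05. Past 2-fold, 456 of these were higher and 611 lower. The median log2 ratio over all genes tested was 0.01, and among the genes called it was 0.80 for those higher and -0.95 for those lower. Both RIPSeq values lay above both RNASeq values in 5219 genes (34.5%) and below both in 4984 (33.0%). Scaling by library totals alone, without TMM, moved the median of all genes by -0.10 and gave 894 higher and 1595 lower. The calls needed both RIPSeq libraries: without RIPSeq replicate 1, or without RIPSeq replicate 2, 0 genes were called by edgeR, with 2909 and 2651 at an unadjusted p under 0.05.

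**Figure D1:**
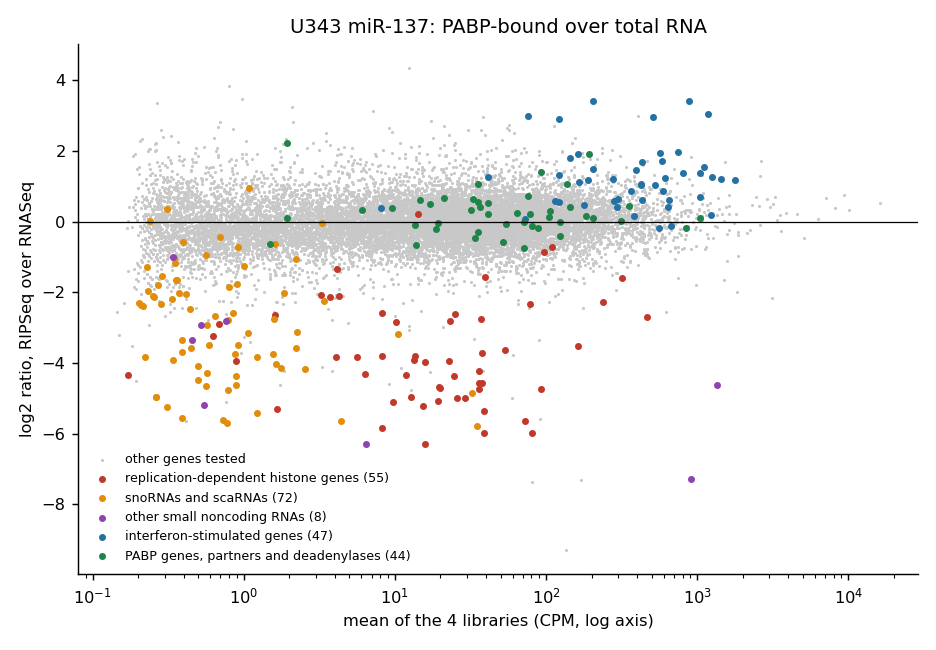
Log2 ratio of RIPSeq over RNASeq (vertical) against the mean CPM of the 4 U343 miR-137 libraries (horizontal, log axis), 1 point a gene, with 5 gene lists in colour and the number of members tested in the key. Of the histone genes 53 of 55 were called lower, the small RNAs reach down to -7.27 for RPPH1, and the interferon-stimulated genes run from -0.17 for SAMD9 to 3.42 for CCL5.

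Set against 1 RNASeq library at a time, with no test, the counts differed by replicate. Both RIPSeq libraries were past 2-fold above RNASeq replicate 1 in 1175 genes (7.78%) and below it in 813 (5.38%). Against RNASeq replicate 2 the counts were 501 higher (3.32%) and 659 lower (4.36%). Past 2-fold against both replicates were 340 genes higher (2.25%) and 454 lower (3.01%). Fitted without RNASeq replicate 1, edgeR called 2181 genes higher (14.1%) and 2195 lower (14.2%), and 97.6% of the 1404 genes and 99.2% of the 1326 remained called in the same direction. Fitted without RNASeq replicate 2, it called 2872 higher (18.7%) and 2768 lower (18.0%), with 97.9% and 99.8% of the genes kept. In both of these fits the lone RNASeq library is assumed to vary like the RIPSeq group.

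The replication-dependent histones package newly made DNA, and their mRNAs typically end in a stem-loop. Whether some of these gene rows also count transcripts with a poly(A) tail was not examined. Of 55 tested, 53 were lower in PABP-bound RNA and 0 higher, with a median log2 ratio of -3.91, against 8.78% of all genes lower. The median was -4.14 against RNASeq replicate 1 and -3.40 against replicate 2. Together they held 0.527% and 0.370% of the reads in RNASeq and 0.0626% and 0.0730% in RIPSeq.

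HIST1H3F, a core histone H3 gene, had the lowest ratio of the list, with 38.0 and 24.7 CPM in RNASeq and 0.481 and 0.317 CPM in RIPSeq (log2 ratio -6.29, SE 0.36, adjusted p = 0.00846). HIST1H1E, a linker histone and the most abundant of the list, had 849.5 and 764 CPM in RNASeq and 109 and 139 CPM in RIPSeq (-2.70, SE 0.19, adjusted p = 0.00939). The groups were far apart in both genes. HIST1H1C, another linker histone, fell less, from 434 and 356 CPM to 80.1 and 84.0 CPM (-2.27, SE 0.16, adjusted p = 0.00901).

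The 2 that did not pass the test were HIST3H2A and HIST1H2BK. HIST3H2A, an H2A gene outside the main histone cluster, had 12.5 and 13.9 CPM in RNASeq and 13.7 and 16.9 CPM in RIPSeq, groups that overlapped (0.21, SE 0.17, adjusted p = 0.416). HIST1H2BK, an H2B gene chosen after its values were seen, had 161 and 109 CPM in RNASeq and 82.1 and 82.3 CPM in RIPSeq (-0.72, SE 0.21, adjusted p = 0.0788). HIST2H2AC, an abundant H2A gene, fell from 441 and 514 CPM to 159 and 156 CPM (-1.60, SE 0.14, adjusted p = 0.0116). The histone variants made outside S phase, whose mRNAs do have a poly(A) tail, differed from the list above: of 9 tested, 1 was lower, H2AFV at -0.56, and the median was -0.15. H3F3B, the histone H3.3 gene, had 206 and 372 CPM in RNASeq and 369 and 361 CPM in RIPSeq, so its RIPSeq values matched RNASeq replicate 2 and not replicate 1.

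Small RNAs without poly(A) tails were lower too. RPPH1, the RNA subunit of the tRNA-processing enzyme RNase P (hg18, chr14:19881070-19881410), had 2405 and 1224 CPM in RNASeq and 14.1 and 9.42 CPM in RIPSeq (log2 ratio -7.27, SE 0.51, adjusted p = 0.00939). RMRP, the RNA of RNase MRP (hg18, chr9:35647750-35648014), had 3408 and 1804 CPM against 116 and 95.0 CPM (-4.63, SE 0.40, adjusted p = 0.0111). TERC, the telomerase RNA, had 15.8 and 9.58 CPM against 0.133 and 0.185 CPM (-6.29, SE 0.42, adjusted p = 0.00863). All 3 were also higher in RNASeq replicate 1 than in replicate 2, and the groups did not overlap.

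Of the 8 genes of that list tested, 7 were lower and 0 higher, with a median of -3.98 (-4.30 against RNASeq replicate 1, -3.46 against replicate 2). The remaining gene was RNU6ATAC, a minor spliceosome RNA at 0.585 and 0.317 CPM in RNASeq and 0.214 and 0.237 CPM in RIPSeq (-0.99, SE 0.46, adjusted p = 0.189). Of 72 small nucleolar and Cajal body RNAs tested, which guide the modification of other RNAs, 49 were lower and 0 higher, with a median of -2.76. That median was -3.18 against RNASeq replicate 1 and -2.40 against replicate 2. SCARNA2, the most abundant, had 90.4 and 46.0 CPM in RNASeq and 1.55 and 0.950 CPM in RIPSeq (-5.77, SE 0.48, adjusted p = 0.0110). Most of these genes lie in introns or exons of host genes and the counting is not stated to use strand, so their reads can include those of the host. SCARNA10, for one, overlaps NCAPD2 and fell from 89.6 and 35.8 CPM to 1.74 and 2.61 CPM. SNORD86, which overlaps the ribosome biogenesis gene NOP56, had the highest ratio of the list, 0.96 with an adjusted p of 0.155.

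Of 18 microRNA genes tested, 4 were lower (MIR663, MIRLET7I, MIR27B and MIR17HG) and 0 were higher, or 22.2% lower against 8.78% of all genes. These rows count reads of the precursor region, not the mature microRNA. MIR663 had 29.7 and 35.4 CPM in RNASeq and 1.66 and 1.74 CPM in RIPSeq (log2 ratio -4.26, SE 0.17, adjusted p = 0.00846), and MIR17HG, the host transcript of the miR-17-92 cluster, had 4.98 and 7.54 CPM against 2.08 and 2.06 CPM (-1.59, SE 0.27, adjusted p = 0.0253). Among all genes with a RefSeq class, 37 of 276 long noncoding RNAs were lower (13.4%) and 4 higher (1.45%), against 1165 lower (8.38%) and 1369 higher (9.85%) of 13897 protein-coding genes.

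Of 20 long noncoding RNAs of a chosen list, 5 were lower (MALAT1, BCYRN1, KCNQ1OT1, MIAT and RMST) and 1 was higher (NEAT1). The shares, 25.0% lower and 5.00% higher, stood beside 8.78% and 9.29% of all genes. MALAT1, a nuclear RNA whose 3′ end is a triple helix in place of a poly(A) tail, had 935 and 1194 CPM in RNASeq and 171 and 193 CPM in RIPSeq (log2 ratio -2.55, SE 0.19, adjusted p = 0.0101). NEAT1, the scaffold of nuclear paraspeckles, had 38.1 and 55.9 CPM in RNASeq and 87.5 and 95.0 CPM in RIPSeq (0.96, SE 0.21, adjusted p = 0.0422). BCYRN1, an RNA polymerase III transcript, fell from 161 and 101 CPM to 24.9 and 23.4 CPM (-2.44, SE 0.25, adjusted p = 0.0136), and its row overlaps 3 other genes.

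Among other genes, the 10 with the largest negative ratios were NRSN1, MUC17, C15orf51, LOC146336, HEPN1, MACC1, ZNF485, FGF23, TMC5 and RPH3A, from -9.29 to -4.22. NRSN1, a neuronal membrane protein (hg18, chr6:24234393-24255736), had 344 and 193 CPM in RNASeq, and 0.374 and 0.475 CPM, or 14 and 18 reads, in RIPSeq (-9.29, SE 0.45, adjusted p = 0.00846). MUC17, a membrane mucin of the gut (hg18, chr7:100450084-100488860), had 223 and 97.4 CPM in RNASeq and 0.961 and 0.976 CPM in RIPSeq (-7.37, SE 0.54, adjusted p = 0.00989). These rows were abundant in total RNA and close to absent from the precipitate.

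C15orf51 and LOC146336 behaved alike, with 461 and 217 CPM against 2.03 and 2.24 CPM for the first (-7.31) and 225 and 131 CPM against 3.79 and 3.72 CPM for the second (-5.57). MACC1, a regulator of MET transcription linked to metastasis, was more even between the RNASeq replicates, at 108 and 122 CPM against 3.36 and 3.91 CPM (-4.98, SE 0.15, adjusted p = 0.00846). RPH3A, a synaptic vesicle protein, had 6.98 and 7.52 CPM against 0.481 and 0.290 CPM (-4.22). HEPN1 lies within HEPACAM in hg18, so the reads of these 2 genes cannot be told apart.

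The 10 largest positive ratios were those of LDLRAD2, KLHDC7B, SERPING1, HSPG2, IFITM2, PRR12, PPDPF, IL18BP, PTPN23 and ATXN2L, from 4.35 to 2.59. HSPG2, the basement membrane proteoglycan perlecan (hg18, chr1:22021324-22136337), had 8.89 and 8.54 CPM in RNASeq and 66.4 and 70.1 CPM in RIPSeq (2.97, SE 0.11, adjusted p = 0.00846). LDLRAD2 (hg18, chr1:22011345-22024301) overlaps HSPG2 and had 1.28 and 1.04 CPM against 22.8 and 24.7 CPM (4.35, SE 0.18, adjusted p = 0.00846), so its reads and those of HSPG2 cannot be told apart without strand. Both rows were higher in both RIPSeq libraries by a like amount against either RNASeq replicate.

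ATXN2L, a relative of the PABP-binding protein ataxin-2, had 13.8 and 18.5 CPM in RNASeq and 94.0 and 100.4 CPM in RIPSeq (2.59, SE 0.18, adjusted p = 0.00884). PTPN23, an endosomal phosphatase-like protein, rose from 6.82 and 10.6 CPM to 50.9 and 53.8 CPM (2.59, SE 0.24, adjusted p = 0.0121). PRR12 had 5.00 and 6.23 CPM against 34.2 and 39.5 CPM (2.71), and PPDPF 33.1 and 27.1 CPM against 206 and 186 CPM (2.70). Of the same 10, SERPING1, the C1 complement inhibitor, IFITM2, an antiviral membrane protein, and IL18BP, a decoy for interleukin-18, are induced by interferon, and their RNASeq values differed by replicate. SERPING1 had 0.0450 and 0.272 CPM in RNASeq and 1.66 and 1.90 CPM in RIPSeq, which put it at 4.99 (log2) against replicate 1 and 2.66 against replicate 2. Its RNASeq levels rest on few reads, so the size of these ratios is uncertain.

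**Figure D2:**
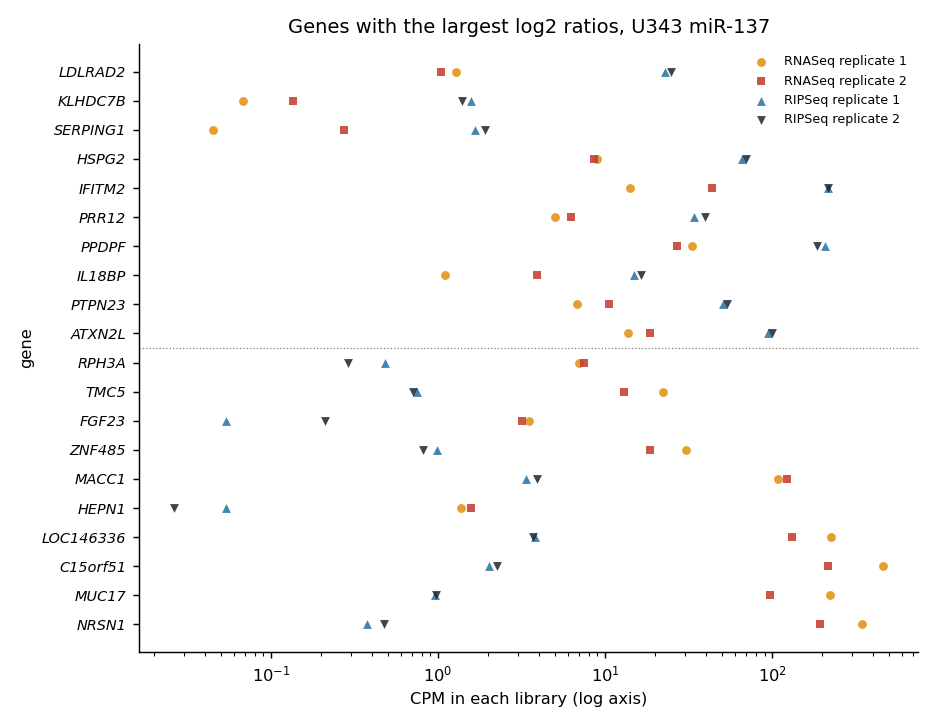
CPM (log axis) of the 20 genes with the largest positive (above the dotted line) and negative (below it) log2 ratios, 1 symbol for each of the 4 U343 miR-137 libraries. In all 20 the RIPSeq symbols lie apart from the RNASeq symbols, and in SERPING1, IFITM2 and IL18BP the RNASeq replicates also lie apart from each other.

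The mRNAs of the PABP family were higher in the PABP precipitate. PABPC1, the main cytoplasmic PABP, had 79.7 and 79.9 CPM in RNASeq and 309 and 295 CPM in RIPSeq, a log2 ratio of 1.92 (SE 0.11, adjusted p = 0.00846). PABPC4, the inducible PABP, had 56.1 and 45.2 CPM in RNASeq and 134 and 132 CPM in RIPSeq (1.40, SE 0.14, adjusted p = 0.0131). PABPN1, the nuclear PABP that sets tail length, had 61.4 and 53.7 CPM against 94.8 and 94.6 CPM (0.72, SE 0.11, adjusted p = 0.0221). The groups did not overlap in any of the 3, and PABPC1 gave 1.92 against either RNASeq replicate. PABPC3, a retrogene near-identical to PABPC1, also rose (2.23, adjusted p = 0.0130), but at 0.653 to 3.32 CPM its reads may come from PABPC1.

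Of 44 PABP genes, partners and deadenylases tested, 9 were higher (20.5%, against 9.29% of all genes) and 2 lower (4.55%, against 8.78%), with a median of 0.19. That median was 0.23 against RNASeq replicate 1 and 0.12 against replicate 2. Beside the 4 PABP genes, the higher ones were LARP1, which binds PABP and the start of ribosomal protein mRNAs, and the CCR4-NOT subunits CNOT3, CNOT6, CNOT10 and RQCD1, the last 3 not called with library totals alone. LARP1 had 79.7 and 97.9 CPM in RNASeq and 184 and 190.1 CPM in RIPSeq (1.07, SE 0.14, adjusted p = 0.0177). The 2 lower genes were both subunits of the PAN2-PAN3 deadenylase. PAN2, the nuclease, fell from 87.6 and 91.2 CPM to 55.3 and 52.1 CPM (-0.74, SE 0.10, adjusted p = 0.0177), and PAN3, its PABP-binding partner, from 38.4 and 40.2 CPM to 28.4 and 28.8 CPM (-0.46, SE 0.10, adjusted p = 0.0433). The translation initiation factor mRNAs EIF4A1 and EIF4G1, the most abundant of the list, had log2 ratios of 0.12 and -0.19 that did not pass the test.

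Of 77 cytosolic ribosomal protein genes, 24 were lower in PABP-bound RNA (31.2%, against 8.78% of all genes) and 1 was higher, with a median log2 ratio of -0.28 (-0.33 against RNASeq replicate 1, -0.23 against replicate 2). RPS21, a small-subunit protein, fell from 179 and 166 CPM to 39.6 and 32.6 CPM (-2.26, SE 0.14, adjusted p = 0.00846), and RPS29 (-2.21) and RPL39 (-2.11) fell as far. RPL10, a late-joining large-subunit protein whose row overlaps SNORA70, was the one that rose, from 677 and 629.6 CPM to 1196 and 1082 CPM (0.80, SE 0.15, adjusted p = 0.0310). Of the 3 most abundant, RPS2 had 1780.2 and 1546 CPM in RNASeq and 2061 and 1831 CPM in RIPSeq and did not pass the test (0.23, adjusted p = 0.365). RPL41 (-0.22) and RPLP0 (-0.46) did not pass it either. Genes of this family have many processed copies, so the authors' read placement could move their counts. Of 20 elongation factor and other TOP mRNAs, 0 were called in either direction by edgeR, 9 had an unadjusted p under 0.05, and DESeq2 called 5 higher and 1 lower.

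Of 79 nuclear-encoded subunits of the mitochondrial respiratory chain, 20 were lower (25.3%, against 8.78% of all genes) and 2 higher, with a median of -0.22. That median was -0.25 against RNASeq replicate 1 and -0.18 against replicate 2. UQCRQ, of complex III, fell from 198 and 182 CPM to 66.6 and 56.8 CPM (-1.62, SE 0.13, adjusted p = 0.0108), and SDHC, of complex II, rose from 3.45 and 3.21 CPM to 6.54 and 5.88 CPM (0.90, SE 0.17, adjusted p = 0.0332). Mitochondrial ribosomal proteins went both ways, with 12 of 75 higher (16.0%, against 9.29% of all genes), 8 lower (10.7%, against 8.78%) and a median of 0.08. Within that family MRPL33 fell from 66.7 and 62.8 CPM to 19.5 and 13.4 CPM (-1.98, SE 0.21, adjusted p = 0.0135), while MRPL32 rose from 35.9 and 46.0 CPM to 97.3 and 99.4 CPM (1.26, SE 0.15, adjusted p = 0.0153).

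Messages for endoplasmic reticulum translocation and folding had a median of 0.23, with 4 of 37 higher (10.8%) and 1 lower, a share of higher genes near the 9.29% of all genes. SRP68, of the signal recognition particle, rose from 53.5 and 49.9 CPM to 129 and 124 CPM (1.29, SE 0.10, adjusted p = 0.0103), and SEC61G, of the translocon, fell from 109 and 107 CPM to 29.8 and 25.2 CPM (-1.97, SE 0.12, adjusted p = 0.00846). Of 39 proteasome subunits, 7 were higher (17.9%, against 9.29% of all genes) and 1 lower (2.56%, against 8.78%). Their median was 0.27 against RNASeq replicate 1 and 0.10 against replicate 2. PSME2, an activator subunit that interferon induces, rose most, from 58.7 and 107 CPM to 271 and 260.3 CPM (1.68, SE 0.31, adjusted p = 0.0307), and PSMA7, of the core, fell from 347 and 335 CPM to 171 and 147 CPM (-1.10, SE 0.14, adjusted p = 0.0167). Of 60 collagens, laminins and integrins, 6 were higher, COL1A1 (1.86), LAMA5 (1.79), ITGA5, COL4A2, ITGB4 and COL18A1, and 4 were lower, ITGAE (-2.18), ITGAD, ITGAV and ITGB8, shares of 10.0% and 6.67% near the 9.29% and 8.78% of all genes. ITGAE overlaps GSG2.

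Among 30 proliferation genes, 4 were lower, the kinetochore proteins CENPE (-1.62, adjusted p = 0.0115) and CENPF (-1.10, adjusted p = 0.0143), the topoisomerase TOP2A (-1.09) and thymidine kinase TK1 (-0.70), and 2 were higher, the replication clamp PCNA (0.89, adjusted p = 0.0412) and RRM2 (0.49). CENPF fell from 273 and 301 CPM to 134 and 134 CPM. The shares of the list, 13.3% lower and 6.67% higher, stood beside 8.78% and 9.29% of all genes. Of 40 immediate early and other unstable mRNAs, 4 were lower, ID3, DUSP1, FOSL2 and PLK2, and FOSL1 was higher at 17.7 and 39.1 CPM against 105 and 90.1 CPM (1.78, SE 0.40, adjusted p = 0.0450). The 10.0% lower was near the 8.78% of all genes. The median of this list turned with the RNASeq replicate, from 0.38 against replicate 1 to -0.33 against replicate 2. MCL1, an unstable mRNA for a survival protein, shows it: 156 and 523 CPM in RNASeq and 366 and 369.7 CPM in RIPSeq.

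Among protein-coding genes the ratio also varied with the genomic span of the gene in hg18. Of the 2780 genes with the shortest span, up to 8777 bases, 326 were higher (11.7%) and 216 lower (7.77%), with a median of 0.09. Of the 2780 with the longest span, from 89274 bases, 148 were higher (5.32%) and 432 lower (15.5%), with a median of -0.20. The medians of these short and long genes were 0.08 and -0.16 against RNASeq replicate 1 and 0.11 and -0.24 against replicate 2. Span includes introns and is not transcript length. The GC percent of the 300 bases around the annotated start, known for 81.3% of these genes, gave medians between -0.04 and 0.06 over 5 groups of rising GC.

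Both RIPSeq libraries carried an interferon response that only RNASeq replicate 2 shared. Interferon-stimulated genes are switched on after a cell senses type I or III interferon. The 47 genes of the list held 3.14% and 3.39% of the reads in RIPSeq and 2.86% in RNASeq replicate 2, but 0.150% in RNASeq replicate 1, which was within the 0.139% to 0.157% of the 4 control libraries. In the edgeR fit of all 4 libraries 1 of the 47 was called, IFITM2, which was higher. The median log2 ratio of the list was 1.18 in that fit.

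Against RNASeq replicate 1, all 47 were past 2-fold higher in both RIPSeq libraries, with a median log2 ratio of 4.78. Against replicate 2, 8 were past 2-fold higher and 1 lower, with a median of 0.21. The list and the split by replicate were set with earlier results of these data known, so these values are a description and not a test. ISG15, a ubiquitin-like modifier, had 33.1 and 2154 CPM in RNASeq and 2492 and 2461 CPM in RIPSeq, or 6.22 against replicate 1 and 0.20 against replicate 2. IFIT1, which binds foreign RNA caps, had 9.23 and 1737 CPM in RNASeq and 2059.7 and 1959.6 CPM in RIPSeq, and RSAD2, the antiviral enzyme viperin, 4.10 and 1457 CPM against 1696 and 1821 CPM. In these 3 genes RNASeq replicate 1 stood apart from the other libraries. Replicate numbers do not tie a RIPSeq library to an RNASeq library, and which culture each came from is not stated.

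With RNASeq replicate 1 left out, edgeR gave the list a median log2 ratio of 0.21. With the control mimic, 11 of the 47 were higher by edgeR (23.4%, against 24.4% of all genes) and 14 lower (29.8%, against 24.2%). The 8 past 2-fold against replicate 2 were IFITM1, IFITM2, IFITM3, IFI6, IFI27, CCL5, BST2 and UBE2L6. With the control mimic all of these but IFI27 and CCL5 were also higher in both RIPSeq than in both RNASeq libraries. IFITM2, for one, had 5.99 and 6.07 CPM in control RNASeq and 19.9 and 24.6 CPM in control RIPSeq. IFI27 and CCL5, at low levels there, were lower in control RIPSeq. IFITM1, like IFITM2 and IFITM3 a membrane protein that blocks virus entry, had 1.44 and 299 CPM in RNASeq and 1561 and 1646 CPM in RIPSeq. IFI6, a mitochondrial and endoplasmic reticulum protein, had 16.2 and 494 CPM against 2114 and 2101 CPM. CCL5, a chemokine, had 1.22 and 68.7 CPM against 246 and 502 CPM, so the RIPSeq replicates also differed. The gene below was SAMD9, an antiviral translation inhibitor, with 31.6 and 1155 CPM in RNASeq and 557 and 498 CPM in RIPSeq, 4.06 against replicate 1 and -1.13 against replicate 2. IFIT2, DDX60, GBP1, HERC5, IFIH1 and SAMD9L were among the others that lay below RNASeq replicate 2 in both RIPSeq libraries. With the control mimic SAMD9 and all of these but IFIT2 were also lower in both RIPSeq than in both RNASeq libraries. SAMD9 had 41.4 and 38.8 CPM in control RNASeq and 20.6 and 17.0 CPM in control RIPSeq.

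Of 5 interferon genes tested, IFNB1 and the lambda interferons were measured in the same pattern. IFNE was near the floor, with 5 and 15 reads in RNASeq and 10 and 9 in RIPSeq (log2 ratio 0.16). IFNA1, IFNG and IFNK had at most 5 reads in any library and were not tested. IFNB1, interferon beta, had 1 read in RNASeq replicate 1 and 18.5 CPM in replicate 2, with 16.5 and 24.2 CPM in RIPSeq. IL29, interferon lambda-1, had 0 reads in RNASeq replicate 1 and 8.54 CPM in replicate 2, with 19.2 and 41.8 CPM in RIPSeq. IL28A and IL28B, the other lambda interferons, had 3.96 and 2.65 CPM in RNASeq replicate 2, 5.79 and 4.22 CPM in RIPSeq replicate 1, and 11.0 and 7.86 CPM in RIPSeq replicate 2. IL28A and IL28B are near-identical, so the division of reads between them is uncertain. CD68, a lysosomal protein listed here as a macrophage marker, moved in the same direction, at 4.30 and 32.7 CPM in RNASeq and 115 and 94.2 CPM in RIPSeq, while the macrophage and leukocyte markers CD14, ITGAM and PTPRC stayed at 28 reads or fewer in each library.

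**Figure D3:**
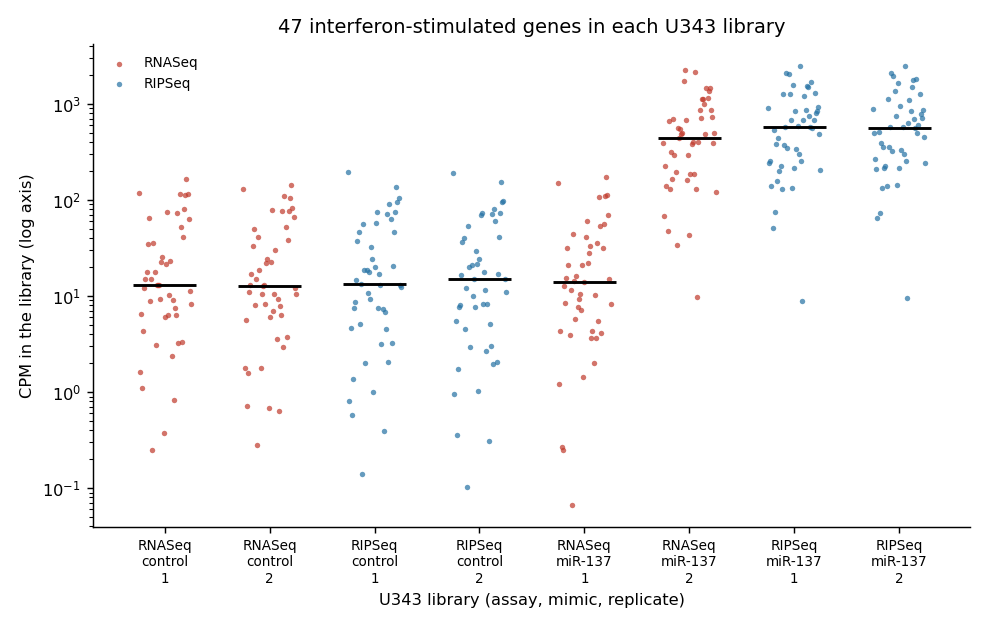
CPM (log axis) of 47 interferon-stimulated genes in each of the 8 U343 libraries, 1 point a gene, RNASeq in red and RIPSeq in blue, with the median as a black bar. RNASeq miR-137 replicate 1 sits with the 4 control libraries, and RNASeq miR-137 replicate 2 with both RIPSeq miR-137 libraries.

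A known promoter element was then looked for in that list. The interferon-stimulated response element, searched on both strands as GAAA, any 2 letters and GAAA again, was found in 22 of 36 of their RefSeq promoter windows (250 bases before to 50 after the start, GRCh38.p14), or 61.1%, against 2.90% of 11488 windows of genes tested. The list was chosen as genes that interferon switches on, so a high share was likely beforehand and is not a result on PABP-bound against total RNA. A match is a description of the letters and not a site of binding. The windows below, chosen to show genes that were close to RNASeq replicate 2 (ISG15, IFIT1), above it (IFI6) and below it (SAMD9), carry the match in capitals. All are written on the gene's own strand, and in IFIT1 the match is read on the opposite strand.
ISG15: tgcctcggGAAAGGGAAAccgaaact
IFIT1: agctttagTTTCACTTTCccctttcg
IFI6: agagagggGAAAATGAAActctgcag
SAMD9: tgagaaatGAAACTGAAAccaaacct
They lie at chr1:1013376-1013401 (plus), chr10:89392499-89392524 (plus), chr1:27672331-27672356 (minus) and chr7:93118098-93118123 (minus).

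**Figure D4:**
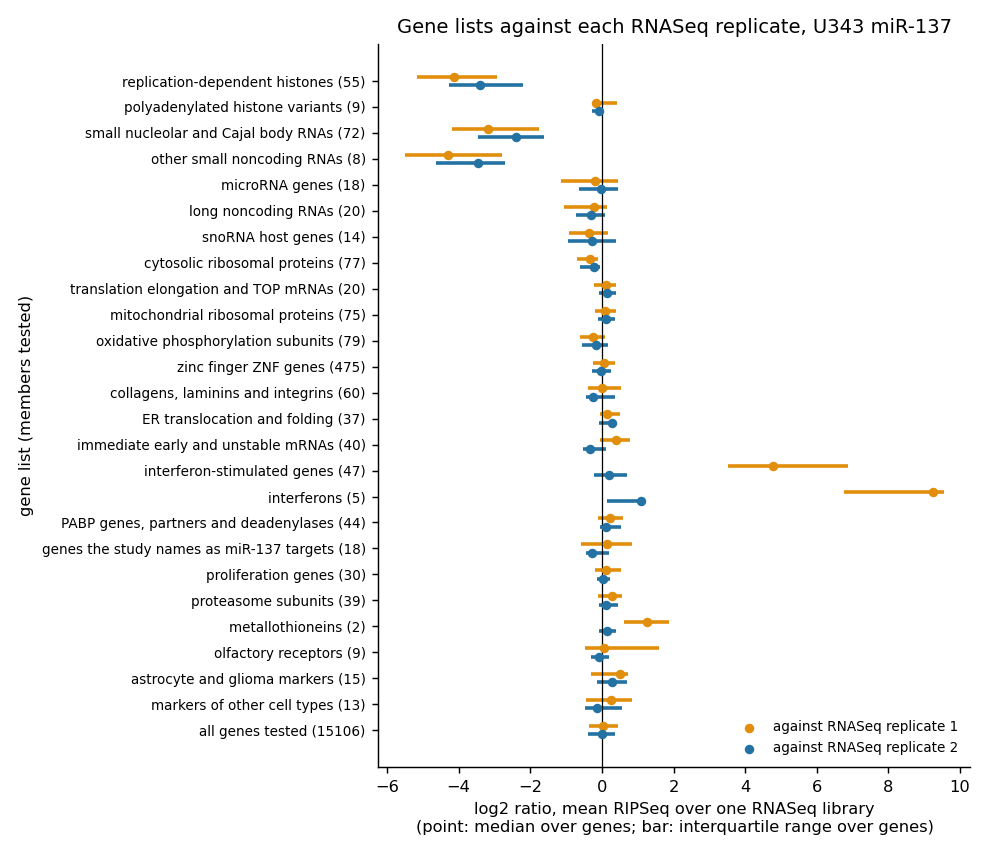
Median (point) and interquartile range over genes (bar) of the log2 ratio of the mean RIPSeq CPM over 1 RNASeq library, for each gene list and for all genes tested, against RNASeq replicate 1 (orange) and replicate 2 (blue). The histone and small RNA lists lie below -2 against either replicate, while the interferon-stimulated genes lie at 4.78 against replicate 1 and 0.21 against replicate 2.

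The genes the study names as miR-137 targets were measured next, since a microRNA can change an mRNA's tail as well as its level. Of 18 tested, 5 were lower in PABP-bound than in total RNA (CDK6, MIB1, KDM5B, MTDH and TGFB2), 3 were higher (MSI1, CD24 and LRRC4) and 10 did not pass the test. The shares were 27.8% lower and 16.7% higher, against 8.78% and 9.29% of all genes. The median was 0.13 against RNASeq replicate 1 and -0.27 against replicate 2. With the control mimic 6 of 17 were lower (35.3%, against 24.2% of all genes) and 4 higher (23.5%, against 24.4%). By edgeR's interaction test, described further on, 0 of 18 differed between the mimics. CDK6, the G1 cyclin-dependent kinase, had 77.1 and 88.0 CPM in RNASeq and 40.8 and 34.4 CPM in RIPSeq (log2 ratio -1.13, SE 0.14, adjusted p = 0.0163). MIB1, a ubiquitin ligase of Notch signalling, had 50.8 and 54.5 CPM against 25.3 and 27.4 CPM (-1.0, SE 0.11, adjusted p = 0.0142). The groups did not overlap in either gene.

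MSI1, the stem cell RNA-binding protein Musashi1, went the other way, with 24.9 and 24.6 CPM in RNASeq and 52.5 and 52.1 CPM in RIPSeq (1.08, SE 0.10, adjusted p = 0.0114). KDM5B, a histone demethylase, fell by less (-0.58, adjusted p = 0.0397), as did MTDH (-0.59, adjusted p = 0.0236) and TGFB2 (-0.52, adjusted p = 0.0431). CD24 (0.92) shares reads with near-identical copies, and LRRC4 (1.65, adjusted p = 0.0469), which lies within SND1, was at 0.158 CPM in both RNASeq libraries. PTGS2, the inducible cyclooxygenase, rested on the RNASeq replicate, at 3.58 and 68.2 CPM in RNASeq and 23.8 and 17.8 CPM in RIPSeq (adjusted p = 0.673). The study chose these genes on these libraries or earlier ones, so the list is not independent evidence.

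With the control mimic the same ratio was measured in 4 other U343 libraries, where edgeR called 3625 genes higher (24.4%) and 3606 lower (24.2%) of 14878. Of the 1404 genes higher with miR-137, 1393 were tested with the control mimic and 1218 of those were higher there too (87.4%, or 33.7% of the control's own calls). Of the 1326 lower, 1131 of 1314 were shared (86.1%, or 31.7%). Over 14646 genes the log2 ratios had a Pearson r of 0.79, a description only, since genes are not replicates and all 8 libraries share cell line, kit and gene models. The CDK6 ratio with the control mimic was -0.73, the MIB1 ratio -0.89, the MSI1 ratio 1.71 and the PABPC1 ratio 2.25.

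The difference between the mimics was tested as an interaction over all 8 U343 libraries. By edgeR 1 gene of 15413 was higher with miR-137 (0.00649%) and 0 lower, with 2712 genes at an unadjusted p under 0.05, and DESeq2 called 127 higher and 272 lower. The gene was HIST2H2BE, an H2B gene (hg18, chr1:148122634-148124856). It had 212 and 292 CPM in control RNASeq, 19.2 and 17.3 CPM in control RIPSeq, 118 and 130.3 CPM in miR-137 RNASeq and 69.7 and 67.0 CPM in miR-137 RIPSeq, a difference of log2 ratios of 2.93 (SE 0.22, adjusted p = 0.0456). Its RIPSeq level was thus higher with miR-137 while its RNASeq level was lower. It was not called when genes were filtered at 50 reads on average, or when either RIPSeq miR-137 library was left out.

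No other histone passed the test, and the median difference over the 57 tested was 0.02. HIST2H2AC, beside HIST2H2BE on chromosome 1, had a difference of 2.75 (adjusted p = 0.0749), with 840.3 and 1194 CPM in control RNASeq, 47.2 and 52.5 CPM in control RIPSeq, 441 and 513 CPM in miR-137 RNASeq and 159 and 156 CPM in miR-137 RIPSeq. HIST3H2A had a difference of 2.10 (adjusted p = 0.117), with 3.95 and 4.35 CPM in control RIPSeq and 13.7 and 16.9 CPM in miR-137 RIPSeq. The median ratio of the histone list was -3.95 with the control mimic, where 57 of 57 were lower, and -3.91 with miR-137.

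The interaction calls changed with the RNASeq replicate left out. Without RNASeq miR-137 replicate 1, 18 genes were higher (0.115%) and 12 lower (0.0764%), among the 18 being 8 histone genes and 2 interferon-stimulated genes, with no histone gene lower. Without RNASeq miR-137 replicate 2, 1630 were higher (10.4%) and 1483 lower (9.45%), 19.8% in all, with 47 of 47 interferon-stimulated genes among the higher and the histone genes on both sides, 12 higher and 13 lower of 57. In that second fit 94 of 479 ZNF zinc finger genes were higher and 6 lower, and 40 of 79 respiratory chain subunits were lower and 1 higher. The ZNF genes, most of them transcriptional repressors, had a median log2 ratio of 0.02 with miR-137 and -0.30 with the control mimic. Their median was close to 0 against each RNASeq replicate, 0.06 and -0.02, and the median difference between mimics was 0.29 without RNASeq replicate 1 and 0.32 without replicate 2, but with replicate 1 left out 0 of 481 were called. The respiratory chain medians were -0.22 with miR-137 and 0.13 with the control mimic, but with all 8 libraries edgeR called 0 of 79 different between the mimics. The median difference of these genes was -0.45 in that fit, -0.37 without RNASeq replicate 1 and -0.53 without replicate 2.

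**Figure D5:**
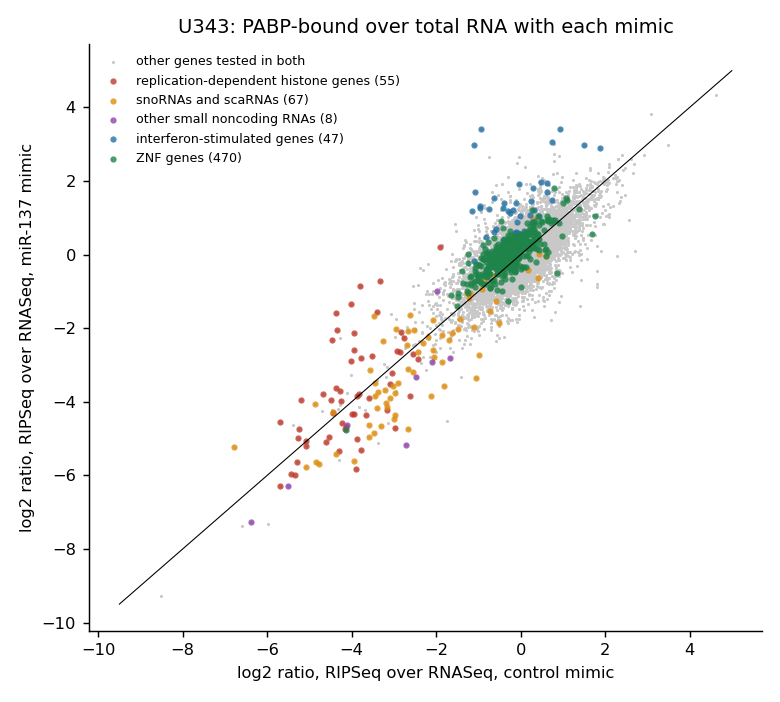
Log2 ratio of RIPSeq over RNASeq with the miR-137 mimic (vertical) against that with the control mimic (horizontal) in U343, 1 point a gene, with the line of equal ratios. Most histone genes and small RNAs are low with both mimics, and all 47 interferon-stimulated genes lie above the line. The miR-137 ratios use both RNASeq replicates, of which replicate 1 lacked the interferon response. The median difference between mimics of the interferon-stimulated genes was 0.37 without RNASeq miR-137 replicate 1 and 4.77 without replicate 2.

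In U251 with the miR-137 mimic, edgeR called 4427 genes higher (32.4%) and 4569 lower (33.5%) of 13655, or 65.9% in both directions. Of the U343 genes tested there, 802 of 1331 higher genes were higher in U251 too (60.3%, or 18.7% of the calls in U251) and 144 were lower. Of the lower genes 790 of 1222 were shared (64.6%, or 18.5%) and 161 were higher. The lists of RNAs that mostly lack a poly(A) tail were low in both lines. In U251 55 of 55 histones and 10 of 10 other small noncoding RNAs were lower, with medians of -3.22 and -4.36. The lines also differ in cDNA kit and in depth, at 10156675 to 26705825 counted reads in the U251 miR-137 libraries, so the line, the kit and the depth cannot be told apart.

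The difference between the lines, tested as an interaction over the 8 miR-137 libraries, was higher in U343 for 2287 genes (14.4%) and lower for 2165 (13.6%) of 15894. Against that background, 54 of 77 cytosolic ribosomal protein genes had a lower ratio in U343 and 1 a higher one, and in U251 itself 59 of 75 were higher in PABP-bound RNA and 1 lower. Respiratory chain subunits had 43 of 73 lower in U343 and 2 higher. ZNF genes went the other way, with 209 of 494 higher in U343 and 7 lower. MUC17 and MACC1, near absent from the U343 precipitate, had ratios of 0.36 and 0.58 in U251 that did not pass the test, and HSPG2, at 2.97 in U343, was lower in PABP-bound RNA of U251 (-0.80, adjusted p = 5.4e-04). PABPC1 was higher in both lines, at 1.92 and 1.83.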

How the data were processed

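The gene counts were made by the authors, who sequenced 36-base reads, mapped them to hg18 with RMAP and counted them over the merged RefSeq isoforms of each gene, and they were deposited as whole numbers per library. How reads with several placements were treated is not given in the sources used here. U343 cDNA was made with a kit that does not mark strand.

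Counts were tested with edgeR 4.0.16 (filterByExpr, TMM, quasi-likelihood F test, Benjamini-Hochberg threshold 0.05, SE from the log2 ratio and F), with DESeq2 1.42.0 as an alternative, after a check on simulated data. Ratios to 1 RNASeq library had 0.5 reads added and were counted when both RIPSeq libraries were past 2-fold. Genes were named as the 10 largest called ratios in each direction (at least 50 reads on average in the higher group, same direction in all 4 pairs, small RNA and histone lists apart) and, per list, the 3 highest in mean CPM and both extremes, or all members where at most 6 were tested. PABP genes and study targets could also be named, and other genes were chosen after their values were seen. The members and lists were chosen with earlier results of these data known. Same-numbered libraries did not deviate together (correlation -0.04), so no pairing was used. Intervals and read shares cover counting error only. Promoter and microRNA sequences are RefSeq's, and 14608 of 15106 genes matched a RefSeq class.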

Additional observations from a re-analysis of the deposited data

Results flagged for a closer look

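By edgeR's interaction test the ratio of PABP-bound to total RNA differed between the mimics in U343 for 1 gene, and between the lines for 2287 genes higher in U343 and 2165 lower, of which 10 are given here. Between the mimics the gene was HIST2H2BE, the H2B gene described above (adjusted p = 0.0456), with log2 ratios of -0.86 with miR-137 and -3.81 with the control mimic.

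Between the lines with miR-137, the 10 genes were the 5 in each direction with the largest fitted differences and at least 50 reads on average in one of the groups, and 9 of them rest on a group with 0 to 3 reads a library, so no fold is given. The ratio was lower in U343 for NRSN1 (adjusted p = 0.00274), with 15293 and 8512 reads in U343 RNASeq and 14 and 18 in U343 RIPSeq, against 0 and 0 in U251 RNASeq and 5 and 7 in U251 RIPSeq. The other genes lower in U343 also had 0 reads in both U251 RNASeq libraries: the neuronal transcription factors NEUROD2 (adjusted p = 0.00342) and NEUROD1 (adjusted p = 0.0164), the chemokine receptor CXCR7 (adjusted p = 0.00112) and the glial adhesion protein HEPACAM (adjusted p = 0.00448). CXCR7 was abundant in U343, with 29775 and 29370 reads in RNASeq and 18512 and 15287 in RIPSeq.

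The ratio was higher in U343 for RTL1 (adjusted p = 0.0164), a retrotransposon-derived gene with 0 reads in both U343 RNASeq libraries, HIST1H4A (adjusted p = 0.0227), a histone H4 gene with 1 and 0, and RPS26P11 (adjusted p = 0.0439) and DISC1 (adjusted p = 0.0417), both with 0 reads in the U251 RIPSeq libraries. BDNFOS, the antisense gene of BDNF, was well covered in both lines, with 101 and 132 reads in U343 RNASeq, 158 and 158 in U343 RIPSeq, 354 and 292 in U251 RNASeq and 38 and 35 in U251 RIPSeq (log2 difference 4.97, SE 0.28, adjusted p = 2.0e-04). Without strand its reads cannot be told apart from those of BDNF. The lines differ in cDNA kit and depth as well, which cannot be told apart from the line.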

How the results depend on the processing

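Calls in U343 miR-137 rested on 2 libraries a group. Leaving out one library gave 0 to 2872 genes higher and 0 to 2768 lower, with 0 in both directions by edgeR without RIPSeq replicate 1 (2909 at an unadjusted p under 0.05) or RIPSeq replicate 2 (2651). The counts were 894 higher with library totals alone, 845 higher and 876 lower with no filter beyond 1 read, 2836 and 2587 in a fit of all 8 U343 libraries, and 219 and 448 by the study's pairwise Fisher rule. The numbers do not pair the libraries, and with the replicate block 0 were higher and 0 lower (4904 unadjusted). Of 103 named genes called, 98 of the 98 with an adjusted p under DESeq2 kept their call, 77 with no filter, 96 with library totals alone, 98 under upper-quartile normalization, 100 without RNASeq replicate 1 (ITGAD, RRM2 and LRRC4 lost it), 102 without RNASeq replicate 2 (LRRC4 lost it), and none under the block or without either RIPSeq library. At a 4-fold limit, 364 genes were higher and 176 lower against RNASeq replicate 1, and 40 and 149 against replicate 2. With 1 RIPSeq library, the 2-fold counts were 1384 to 1416 and 1087 to 1139 against replicate 1, and 638 to 771 and 911 to 1030 against replicate 2.

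The difference between mimics gave 127 higher and 272 lower under DESeq2, 2 higher with no filter or library totals alone, and 0 higher with the replicate block or at least 50 reads on average (2615 and 2535 unadjusted by edgeR). Leaving out one library gave 0 to 1630 higher and 0 to 1483 lower. Between the lines it gave 913 to 3641 and 1000 to 3259. Leaving out one library, U343 control gave 2651 to 3112 and 2524 to 2872, and U251 3336 to 4984 and 3384 to 4885. In the U343 control the same-numbered libraries deviated in opposite directions (correlation -0.20), and a crossed pairing, added after seeing the data, gave 4018 and 4051.

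List medians moved with library totals alone to -0.26 (polyadenylated histone variants), -0.43 (snoRNA hosts), -0.39 (ribosomal proteins), 0.02 (TOP mRNAs), -0.03 (mitochondrial ribosomal proteins), -0.32 (respiratory chain), -0.08 (ZNF genes), 0.09 (PABP list) and -0.02 (proliferation). Under upper-quartile normalization they moved to -0.21 (histone variants), 0.08 (TOP mRNAs) and 0.03 (mitochondrial ribosomal proteins). At 50 reads on average they were -3.70 (small nucleolar RNAs), -6.33 (other small RNAs), -0.78 (microRNA genes), 0.09 (TOP mRNAs), 0.03 (mitochondrial ribosomal proteins), 0.60 (olfactory receptors), 0.24 (astrocyte markers) and -0.24 (other markers), and with no filter -2.24 (small nucleolar RNAs) and -1.19 (microRNA genes), where other genes are tested. The cause of the other shifts was not tested.

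Leaving out one library, medians ranged from -4.27 to -3.48 for histones, -0.21 to -0.09 for polyadenylated variants, -2.87 to -2.49 for small nucleolar RNAs, -4.83 to -3.51 for other small RNAs, -0.53 to -0.25 for microRNA genes, -0.33 to -0.24 for long noncoding RNAs, -0.41 to -0.28 for snoRNA hosts, -0.39 to -0.19 for ribosomal proteins, 0.08 to 0.15 for TOP mRNAs, 0.03 to 0.11 for mitochondrial ribosomal proteins, -0.32 to -0.11 for the respiratory chain and -0.05 to 0.07 for ZNF genes. They ranged from -0.25 to -0.01 for collagens, 0.09 to 0.35 for endoplasmic reticulum genes, -0.33 to 0.36 for immediate early genes, 0.21 to 4.74 for interferon-stimulated genes, 1.08 to 9.59 for interferons, 0.11 to 0.20 for the PABP list, -0.27 to 0.09 for study targets, 0.03 to 0.12 for proliferation, 0.09 to 0.22 for the proteasome, 0.15 to 1.20 for metallothioneins, -0.00 to 0.37 for olfactory receptors, 0.27 to 0.45 for astrocyte markers and -0.15 to 0.16 for other markers.

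The log2 ratio changed sign when a library was left out for H3F3B (-0.03 to 0.78), MCL1 (-0.51 to 1.19), YBX1 (-0.06 to 0.43), GLIPR1 (-0.36 to 0.83), SAMD9 (-1.13 to 4.01), SAMD9L (-1.08 to 3.46), IFIT2 (-0.80 to 6.91), DDX60 (-0.83 to 3.07), GBP1 (-0.81 to 4.18), HERC5 (-0.51 to 5.67), IFIH1 (-0.57 to 5.38) and PTGS2 (-1.72 to 2.49), lowest without RNASeq replicate 1 and highest without RNASeq replicate 2. With the replicate block it changed sign for SAMD9 (1.46), SAMD9L (1.21) and PTGS2 (0.33). None of these 12 genes was called with all 4 libraries.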

Other observations

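Of 14 host genes of small nucleolar RNAs, 4 were lower by edgeR (SNHG9, SNHG5, SNHG10 and SNHG8) and SNHG3-RCC1 was higher, with a median log2 ratio of -0.32. The shares, 28.6% lower and 7.14% higher, stood beside 8.78% and 9.29% of all genes. SNHG9, at the low end, overlaps SNORA78. Of 475 ZNF genes, 34 were higher (7.16%) and 28 lower (5.89%), near the 9.29% and 8.78% of all genes. Of 15 astrocyte and glioma markers tested, CHI3L1 and FABP7 were higher (13.3%, against 9.29% of all genes) and none was lower. Of 9 olfactory receptor genes tested, OR6W1P was lower (11.1%, against 8.78% of all genes). Neither of 2 metallothioneins passed the test, and no mitochondrially encoded gene is in the table.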
